A study of Mus musculus with 48 samples.

Results

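The liver of wild-type male mice was compared between thermoneutral housing (TN, 30 °C) and room-temperature housing (RT, 20 to 22 °C). Wild type (WT) here means hepAGT+/+, mice without the hepatocyte deletion of angiotensinogen (Agt, the protein from which renin releases angiotensin) that their hepAGT-/- littermates (KO) carried. The libraries were chosen by tissue, genotype and temperature in the labels, which gave 8 of the 48 libraries in the series, 4 at each temperature, each labelled as its own biological replicate. All mice ate a Western diet with 21% milk fat and 0.2% cholesterol during 12 weeks and lived under 14 h of light a day. The allele and Cre driver behind the deletion, the strain, the age and the hour of tissue collection are not given in the sources used here. The comparison asks what warm housing does to gene expression in the liver of mice with an intact Agt gene on this diet, and every gene tested counts as part of it.

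At thermoneutrality a mouse has little need to produce heat, and food intake, thyroid hormone turnover and sympathetic activity are known to fall. The liver answers such changes through fuel-sensing and hormone pathways: PPARα drives fatty acid oxidation genes, SREBP and ChREBP drive lipid synthesis genes, and pulses of growth hormone in males keep a set of male-biased genes active through STAT5B. Among those male-biased genes are the major urinary proteins (Mup), lipocalins that the liver secretes and the mouse excretes in urine as pheromone carriers.

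The 8 libraries held 23.7 M to 36.5 M counts each, with counts in 17086 to 20443 gene identifiers, and the 10 most abundant genes took 16.3% to 20.6% of a library. Levels are given below as CPM (read counts scaled to a common library size, with sizes adjusted by the TMM method), always in the order RT replicates 11, 12, 15 and 18, then TN replicates 1, 6, 7 and 24. Differences are log2 differences, TN minus RT, from edgeR, and a gene was called when its adjusted p over all 17594 genes tested was under 0.05. Agt itself was at 336, 434, 424 and 276 CPM at RT and 504, 371, 454 and 309 CPM at TN, which overlapped (log2 difference 0.16, SE 0.18, adjusted p 0.921). Hepatocyte markers such as Alb were abundant in every library, with a summed level of 49115 to 73658 CPM at RT and 66534 to 85194 CPM at TN. Of the summed marker levels of 15 cell types, 13 overlapped between RT and TN. The adipocyte list was at 103 to 193 CPM at RT and 216 to 302 CPM at TN, with Adipoq and Lep at 0 in all 8 libraries, and the erythroid list was at 136.43 to 163 CPM at RT and 95.2 to 136.36 CPM at TN. In bulk tissue, fewer cells of a type and less RNA per cell cannot be told apart.

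Warm housing left few genes past the threshold. edgeR called 4 genes (0.0227% of those tested), Serpine2, Mup-ps13, Mup9 and Cela1, and all 4 fell at TN. No gene was called higher by edgeR, whereas 1276 genes (7.25%) had an unadjusted p under 0.05, 693 of them higher (3.94%) and 583 lower (3.31%). The 4 TN libraries lay wholly above the 4 RT libraries in 2.21% of genes and wholly below them in 1.73%, and 50.9% of genes had a positive and 49.1% a negative log2 difference. DESeq2 called 89 genes (0.474%), 39 higher and 50 lower, and these included the 4. At an edgeR adjusted p under 0.1 there were 14 genes (0.0796%), 4 higher (0.0227%) and 10 lower (0.0568%). The median log2 difference over all genes tested was 0.00716.

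**Figure D1:**
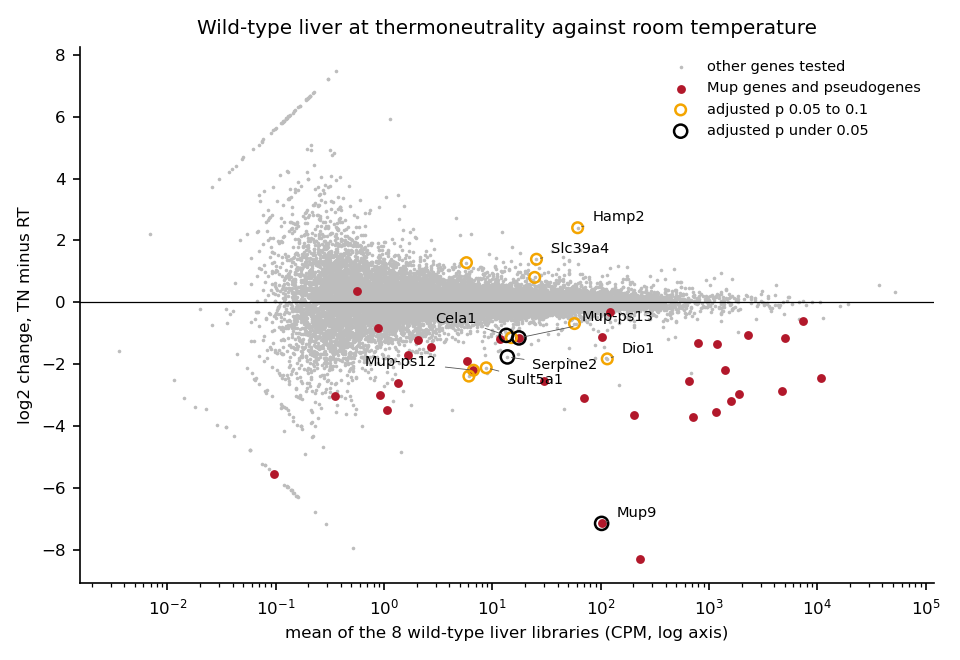
Each point is a gene, placed by its mean over the 8 wild-type liver libraries (CPM, log axis) and its log2 difference, TN minus RT. Black rings mark the 4 called genes, orange rings the 10 genes with an adjusted p between 0.05 and 0.1, and red points the Mup genes, of which 33 of 34 lie below 0.

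Serpine2 (ENSMUSG00000026249, GRCm38 chr1:79794197-79861180, minus strand) had the lowest p of all genes. It encodes protease nexin-1, a secreted inhibitor of thrombin, urokinase and plasmin. Its level was 18.4, 23.7, 21.9 and 21.1 CPM at RT and 5.13, 7.55, 5.22 and 7.13 CPM at TN, with means of 21.3 ± 2.23 and 6.26 ± 1.26 CPM (SD, n = 4). Every TN library lay below every RT library by a wide gap. The log2 difference was -1.77 (SE 0.23, adjusted p 0.00134), a 3.40-fold lower level, and the gene kept its call under every alternative tried, with adjusted p between 1.36e-10 and 0.0153. Markers of stellate cells and fibroblasts, which can also make Serpine2, overlapped between the groups, at 314 to 430 CPM in sum at RT and 275 to 556 CPM at TN. Single markers went both ways. Rgs5 was lower in all TN libraries (log2 difference -0.69, unadjusted p 0.0623 by edgeR) and Col1a1 had a log2 difference of 1.80. The sum cannot show which cells Serpine2 came from, and this was not tested. Of the 35 tested genes of a list of serine protease inhibitors and coagulation factors, Serpine2 was called and the median log2 difference was -0.00134. Klkb1, plasma prekallikrein, was at 197, 213, 253 and 192 CPM at RT and 190, 154, 143 and 140.5 CPM at TN (log2 difference -0.45, unadjusted p 0.00351, adjusted p 0.40), without overlap.

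Cela1 (ENSMUSG00000023031, GRCm38 chr15:100674421-100687921, minus strand) encodes a chymotrypsin-like elastase, a secreted serine protease. It was at 17.4, 19.5, 18.4 and 17.7 CPM at RT and 9.73, 5.73, 10.7 and 8.62 CPM at TN. The RT libraries were nearly level and all of them lay above the TN libraries. It fell by 1.07 on the log2 scale (SE 0.17, adjusted p 0.013). Of 10 markers of the exocrine pancreas, whose digestive enzymes include other elastases, 9 were at 0 in all 8 libraries, and their summed level reached at most 0.299 CPM. Cela1 lost its call in 3 alternatives, without RT replicate 12 (adjusted p 0.0654), without TN replicate 6 (0.0603) and when only the 8 wild-type libraries were fitted (0.134).

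**Figure D2:**
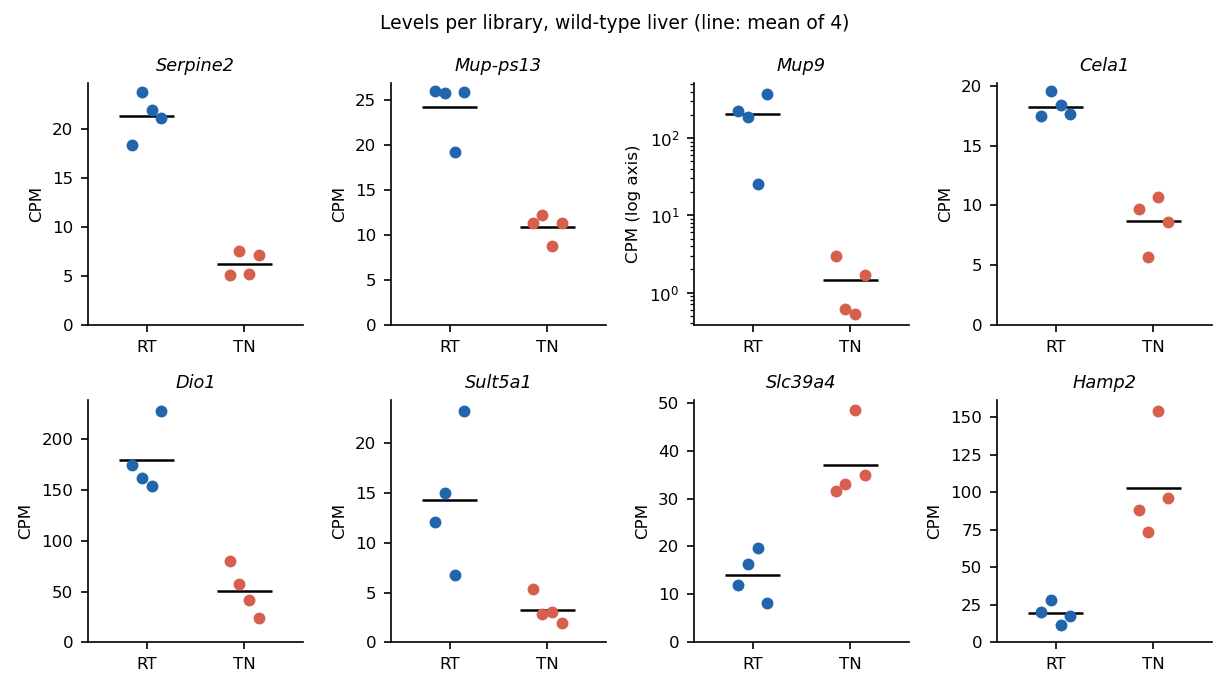
Each point is the level of a gene in 1 wild-type liver library (CPM, linear axes except the log axis for Mup9), with RT in blue, TN in red and a line at the mean of 4. In all 8 genes the RT and TN libraries do not overlap, and Slc39a4 and Hamp2 are the genes of this set that are higher at TN.

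The other called genes belong to the Mup family. Mup9 (ENSMUSG00000078686, GRCm38 chr4:60418046-60421952, minus strand) was at 223, 190, 25.7 and 372 CPM at RT and at 2.99, 0.618, 0.524 and 1.68 CPM at TN. RT replicate 15 was the lowest RT library and was still above the highest TN library. Mup9 fell by 7.15 on the log2 scale (SE 0.83, adjusted p 0.00842), and lost its call without TN replicate 6 (adjusted p 0.0603) and in the fit of only the 8 wild-type libraries (0.221, with a range over alternatives of 1.1e-23 to 0.221). Mup-ps13 (ENSMUSG00000095532, GRCm38 chr4:61534230-61536973, plus strand), an unprocessed pseudogene, was at 26.05, 25.8, 19.3 and 25.9 CPM at RT and 11.3, 12.2, 8.78 and 11.3 CPM at TN. Its TN libraries were close to each other and all below the RT libraries, and it fell by 1.15 (SE 0.16, adjusted p 0.00266), a call kept under every alternative.

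Many Mup genes are near-copies of each other, and a stretch near their start sites shows how alike 12 of them are. RefSeq promoter windows (GRCm38.p6, 250 bases before to 50 after each start) were at hand for 16 of the 34 Mup genes tested, and 12 held the letters TATATAA on the gene's strand. Those letters stand on the gene's strand in 2.2% of all 32851 windows of this length and on either strand in 3.24%. Shown are 50 bases around them, in capitals, for the called Mup9, for Mup19, which shares most windows with it, for Mup10 and Mup18, and for Mup3 and Mup21, coding members with small differences between temperatures, all on the minus strand. Mup6 follows on the plus strand.
Mup9: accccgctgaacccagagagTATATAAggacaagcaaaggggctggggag
Mup19: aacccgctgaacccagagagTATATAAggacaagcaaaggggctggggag
Mup10: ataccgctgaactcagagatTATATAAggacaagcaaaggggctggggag
Mup18: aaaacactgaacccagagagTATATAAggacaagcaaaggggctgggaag
Mup3: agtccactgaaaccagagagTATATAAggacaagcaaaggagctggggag
Mup21: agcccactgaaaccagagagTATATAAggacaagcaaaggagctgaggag
Mup6: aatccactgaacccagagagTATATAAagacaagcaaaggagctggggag
They lie at chr4:60421954-60422003, chr4:61782226-61782275, chr4:60582156-60582205, chr4:61674093-61674142, chr4:62087299-62087348, chr4:62150820-62150869 and chr4:60003432-60003481, in that order. Over these 50 bases the other 11 genes with the letters differed from Mup9 at 1 to 5 positions. Windows without the letters were not compared. Mup19 differed at 1 position, Mup10 at 4, and Mup18, Mup3, Mup21 and Mup6 at 5 each.

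The transcripts are alike as well, which bears on every value of a single Mup gene. Of all 100-base windows along a Mup transcript in GENCODE M21, a median of 17.3% over the 20 coding genes tested matched no other Mup gene, and none did in Mup19 and Mup22. In Mup9 14.1% were its own and 60.6% were shared with Mup19. Among the coding genes, Mup6 had 100% of windows of its own, Mup3 97.1%, Mup21 95.5% and Mup20 61.2%, and of the pseudogenes the called Mup-ps13 had 75.8%. How reads that fit several genes were counted is not given in the sources used here, so levels of single Mup genes with few windows of their own are uncertain, and those of the family in sum less so.

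In sum the family took less of the library at TN. Mup genes made up 6.34%, 5.56%, 3.04% and 9.22% of counts at RT and 2.78%, 1.81%, 0.880% and 1.57% at TN, without overlap, although RT replicate 15 came close to TN replicate 1. Of 49 Mup genes with an identifier 34 were tested and 15 were too low. Among the 34, 2 were called, 27 (79.4%) were lower and 0 higher at an unadjusted p under 0.05 by edgeR (DESeq2 called 14 lower and 0 higher), 33 had a negative log2 difference and the median was -2.33. Of all genes tested, 0.0227% were called lower, and 3.31% were lower at an unadjusted p under 0.05. The TN libraries lay wholly below the RT libraries in 13 of the 34 Mup genes, against 1.73% of all genes tested. Many Mup genes share sequence, so these counts are not of separate observations. RT replicate 15 was the lowest RT library in 27 of the 34 and TN replicate 7 the lowest TN library in 20.

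Single members differed widely in how far apart the groups were. Mup7 was at 6487, 9000.4, 3284 and 14185 CPM at RT and 2514, 692, 138 and 1186 CPM at TN (log2 difference -2.86, adjusted p 0.281). Mup11 was at 1503, 2309, 724 and 3941 CPM at RT and 419, 169, 35.0 and 108 CPM at TN (log2 difference -3.54, adjusted p 0.159). In both genes the groups did not overlap and the spread within a group was several-fold. Mup8 had the most negative log2 difference, -8.30 (adjusted p 0.128), with 5.86 to 1457 CPM at RT and 0.580 to 3.44 CPM at TN. Mup20, known as darcin, the male pheromone that attracts females, was at 3857, 3293, 1968 and 3351 CPM at RT and 1435, 2241, 1147 and 1138 CPM at TN (log2 difference -1.06, adjusted p 0.266), with TN replicate 6 above RT replicate 15. Mup3, with most of its sequence its own, was at 7989, 9207, 7279 and 11300 CPM at RT and 7619, 5968, 4312 and 5876 CPM at TN (log2 difference -0.59, adjusted p 0.314), and here the groups overlapped. Mup6, all of whose windows are its own, was low throughout, at 3.05, 1.06, 0.551 and 1.83 CPM at RT and 0.112, 0.378, 0.193 and 0.120 CPM at TN, without overlap (log2 difference -2.99, adjusted p 0.387). Mup21 overlapped, at 64.6 to 255 CPM at RT and 70.7 to 132 CPM at TN (log2 difference -0.33, adjusted p 0.933).

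Genes around the cluster were compared with it. The 48 Mup genes on chromosome 4 span 59956804 to 62150863 in GRCm38. Of 24 coding genes tested within 1 Mb on either side, 0 had an unadjusted p under 0.05 by edgeR, and their median log2 difference was 0.02. Within the cluster, Gm13775, a processed transcript, was at 32.3, 27.7, 17.6 and 26.9 CPM at RT and 10.3, 12.5, 11.0 and 10.8 CPM at TN (log2 difference -1.23, adjusted p 0.149), without overlap. The other tested genes inside the cluster overlapped between groups, Gm12909, an antisense transcript, at 3.79 to 9.21 CPM at RT and 6.85 to 9.22 CPM at TN (log2 difference 0.25, adjusted p 0.903) and Gm21286, a pseudogene, at 0 to 1.71 CPM and 0 to 1.09 CPM (-0.43, 0.986). These genes were named after their values were seen.

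**Figure D3:**
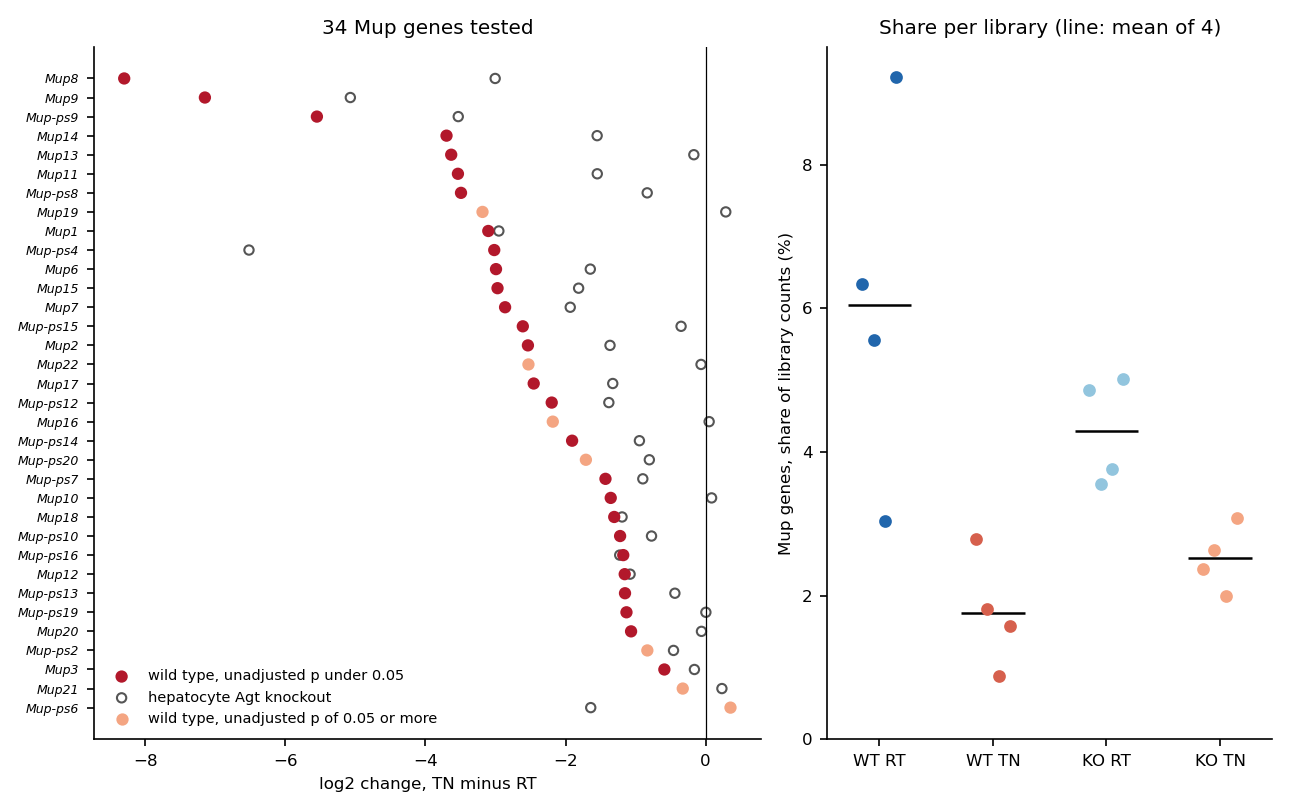
Left, log2 difference, TN minus RT, of the 34 Mup genes tested, in wild-type liver (filled, dark where the unadjusted p is under 0.05) and in knockout liver (open). Right, the share of library counts taken by Mup genes (%), each point a library and each line the mean of 4, where wild-type TN libraries (0.880% to 2.78%) lie below wild-type RT libraries (3.04% to 9.22%).

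Other genes with male-biased expression in mouse liver were mostly lower at TN. A list of 26 such genes without the Mup family had 25 members tested, of which 0 were called by edgeR (6 lower by DESeq2), 12 (48%) were lower and 0 higher at an unadjusted p under 0.05, and 24 had a negative log2 difference. Their median was -0.60. At that limit 3.31% of all genes tested were lower and 3.94% higher, and 49.1% had a negative log2 difference. This list and those below were chosen with earlier results of these data known. Selenbp2, a selenium-binding protein, was at 103, 307, 98.2 and 509 CPM at RT and 80.3, 25.8, 12.0 and 41.1 CPM at TN (log2 difference -2.68, adjusted p 0.304), without overlap. Gstp1, a glutathione transferase, was at 382, 818, 781 and 353 CPM at RT and 244, 331, 199 and 244 CPM at TN (log2 difference -1.20, adjusted p 0.222), without overlap. Cyp7b1, the oxysterol 7α-hydroxylase of the acidic bile acid route, was at 93.7, 204, 145 and 187 CPM at RT and 97.1, 50.6, 35.0 and 46.8 CPM at TN (log2 difference -1.46, adjusted p 0.248), where TN replicate 1 reached the lowest RT library. RT replicates 12 and 18 were the highest libraries for Selenbp2 and Cyp7b1, and TN replicate 7 was the lowest for these and for Gstp1. The complement gene C6 was at 186 to 356 CPM at RT and 89.8 to 177 CPM at TN (log2 difference -0.81, adjusted p 0.271), and the P450 gene Cyp2d9 at 1204 to 1876 CPM and 796 to 1223 CPM (log2 difference -0.61, adjusted p 0.222). Igf1, the growth factor induced by growth hormone, overlapped between groups (log2 difference -0.18, adjusted p 0.903). Socs2, a feedback inhibitor that growth hormone induces, had a log2 difference of -0.51, Ghr, the receptor, -0.13 and Bcl6, a repressor in the same pathway, 0.93, and none of these had an unadjusted p under 0.05.

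Of 22 tested genes with female-biased expression, 0 were called by edgeR or DESeq2, 7 (31.8%) had an unadjusted p under 0.05, all of them higher, and the median log2 difference was 0.51. Among all genes tested 3.94% were higher and 3.31% lower at that limit. The count ranged from 4 without RT replicate 12 to 9 without robust estimation, and the median from 0.37 without RT replicate 12 to 0.91 without RT replicate 11. Rtn4, a reticulon of the endoplasmic reticulum membrane, was at 77.9, 57.7, 91.5 and 73.0 CPM at RT and 119, 103, 124 and 78.9 CPM at TN (log2 difference 0.50, adjusted p 0.403). Cyp2b10, the P450 gene induced through the receptor CAR, was at 0.550 to 2.20 CPM at RT and 3.18 to 6.66 CPM at TN (log2 difference 1.74, adjusted p 0.588), without overlap. Acot4, a peroxisomal thioesterase, was at 158, 99.8, 127 and 114 CPM at RT and 264, 259, 254 and 116 CPM at TN (log2 difference 0.84, adjusted p 0.547), with TN replicate 24 alone inside the RT range. The sex-biased P450 genes Cyp2c40 (log2 difference -0.08), Cyp2c69 (0.52) and Cyp2a4 (0.07) had unadjusted p of 0.05 or more, and Sult1e1 had a log2 difference of 0.01.

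Of the 10 genes that just missed the threshold, 7 were named after their values were seen, and Dio1, Hamp2 and Mup-ps12 were named by the rule. Dio1, type 1 deiodinase, which converts thyroxine to the active hormone and is itself induced by thyroid hormone, was at 175, 162, 154 and 228 CPM at RT and 79.8, 57.4, 41.7 and 23.5 CPM at TN (log2 difference -1.83, SE 0.32, adjusted p 0.0756). The groups were far apart and TN replicate 24 was the lowest. Without TN replicate 24 Dio1 was called (adjusted p 0.0339), and DESeq2 called it as well (2.04e-07), while without TN replicate 7 its adjusted p was 0.336. Of the 16 tested genes of a list of thyroid hormone targets, 2 were lower (12.5%) at an unadjusted p under 0.05, Dio1 and Klf9, and 0 were higher. Of all genes tested 3.31% were lower and 3.94% higher, and counts this small do not set the list apart. The median log2 difference of the 16 was 0.08, and 9 of them had a positive one. Thrsp and Me1, which thyroid hormone also induces, had log2 differences of 0.27 and -0.08.

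Hamp2, a close copy of the iron hormone gene Hamp, was at 20.2, 28.3, 11.6 and 17.5 CPM at RT and 88.4, 73.8, 154 and 96.3 CPM at TN, a 5.32-fold higher level (log2 difference 2.41, SE 0.42, adjusted p 0.0936). All TN libraries were above all RT libraries, and without TN replicate 7 the adjusted p was 0.336. Hamp itself had a log2 difference of 0.24 with an unadjusted p above 0.05. Slc39a4, the zinc importer ZIP4, was at 12.0, 16.3, 19.8 and 8.25 CPM at RT and 31.5, 33.1, 48.5 and 34.9 CPM at TN (log2 difference 1.39, adjusted p 0.0503), without overlap. The metallothioneins Mt1 and Mt2, which bind zinc, had log2 differences of 1.67 and 1.59 and unadjusted p above 0.05. Sult5a1, a cytosolic sulfotransferase, was at 12.0, 15.0, 6.79 and 23.2 CPM at RT and 5.39, 2.85, 3.01 and 1.92 CPM at TN (log2 difference -2.12, adjusted p 0.0503), also without overlap. Slc39a4 and Sult5a1 were both called in the alternatives with no filter, without robust estimation and without RT replicate 15, and their adjusted p without TN replicate 7 was 0.214 and 0.298. The remaining genes between 0.05 and 0.1 were Mup-ps12 (log2 difference -2.20), Capn8 (-2.39), Pdilt (-1.14) and Ginm1 (-0.69), lower at TN, and Myadm (0.81) and the lincRNA 9030616G12Rik (1.28), higher at TN. The 4 TN libraries lay apart from the 4 RT libraries in each of them.

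Among genes whose mean reached 1 CPM, with an unadjusted p under 0.05 and no overlap, the 10 largest log2 differences in each direction were named, leaving out Gm and Rik symbols, and the first above 0 came from a gene at low levels. H19, an imprinted fetal lincRNA, was at 0.115 CPM in RT replicate 11 and 0 in the other RT libraries, and at 0.561, 2.23, 5.47 and 0.659 CPM at TN (log2 difference 5.93, adjusted p 0.222, and 4.99 to 9.07 over the alternatives). Nat8f7, an acetyltransferase family gene, was at 0.0575 to 0.367 CPM at RT and 0.824 to 3.84 CPM at TN (log2 difference 3.46, adjusted p 0.222). Dio3os, a long non-coding RNA that GENCODE places at a bidirectional promoter, was at 2.16, 1.02, 3.61 and 0.367 CPM at RT and 10.8, 6.39, 8.67 and 6.92 CPM at TN (log2 difference 2.17, adjusted p 0.117). Hamp2, Svep1, Cpxm1, Tmem45a, Pik3r6, Cyp2b10 and Plin4 completed the 10 by size, with log2 differences between 1.68 and 2.69. On the lower side 7 Mup genes were joined by Obp2a, another lipocalin (5.32 to 11.5 CPM at RT and 0.331 to 0.958 CPM at TN, log2 difference -3.49, adjusted p 0.146), Selenbp2 and Prrx1 (-3.33, adjusted p 0.479).

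Genes of fatty acid oxidation were mostly higher at TN, least so in TN replicate 24. That library did not exceed the highest RT library in 33 of 35 genes. For TN replicates 1, 6 and 7 this held in 11, 20 and 10 genes. Of 35 tested genes 0 were called by edgeR and 2 by DESeq2, 8 (22.9%) were higher and 0 lower with an unadjusted p under 0.05, 32 had a positive log2 difference, and the median was 0.23. Over all genes tested 3.94% were higher and 3.31% lower at that limit, and 50.9% had a positive log2 difference. Cpt1a, the gatekeeper of mitochondrial fatty acid import, was at 533, 477, 530 and 487 CPM at RT and 864, 671, 787 and 477 CPM at TN (log2 difference 0.47, adjusted p 0.401). TN replicates 1, 6 and 7 lay above every RT library and TN replicate 24 lay level with the lowest RT library. Acot2, a mitochondrial acyl-CoA thioesterase, had TN replicate 24 alone within the RT range, at 7.16, 6.14, 9.15 and 11.2 CPM at RT and 19.9, 23.2, 33.8 and 8.77 CPM at TN (log2 difference 1.35, adjusted p 0.222), and so had Ehhadh, the peroxisomal bifunctional enzyme (405 to 517 CPM at RT and 701, 614, 811 and 450 CPM at TN).

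That library was low over most of the list. TN replicate 24 was the lowest TN library in 31 of the 35 genes, and in 11 of them the other 3 TN libraries were above all RT libraries while it was not. Its low place was not particular to this list. It was the lowest TN library in 34 of 40 nuclear oxidative phosphorylation genes, 10 of 13 mitochondrial genome genes and 25 of 35 interferon response genes. In lipogenesis it was the lowest in 4 of 30 genes and among ER genes in 0 of 24. Without TN replicate 24, 18 of the 35 oxidation genes were higher at an unadjusted p under 0.05, and edgeR called 23 genes in all, 13 higher and 10 lower. Among the 13 were Cpt1a (adjusted p 0.0459), Acot1 (0.0354), Acot2 (0.0339) and Cyp4a10 (0.0459), all known PPARα targets, together with Abcd2, a peroxisomal very-long-chain fatty acid transporter, and Crat, carnitine acetyltransferase. The fatty acid ω-hydroxylase Cyp4a10 was at 293, 293, 379 and 263 CPM at RT and 1047, 430, 872 and 245 CPM at TN, and Abcd2 at 14.3, 7.64, 13.4 and 11.1 CPM at RT and 20.9, 25.8, 34.8 and 9.88 CPM at TN. Lipa, lysosomal acid lipase, was at 286, 244, 209 and 256 CPM at RT and 401, 419, 407 and 228 CPM at TN. These genes called without a library were named after their values were seen. TN replicate 24 was picked out by its low values in these same genes, so the higher count without it follows in part from that choice. Leaving out TN replicate 1, 6 or 7 instead gave 7, 2 and 4 calls in all, and the list's count was 6 without TN replicate 1. Pdk4, the kinase that shuts glucose carbon out of mitochondria, was higher in all 4 TN libraries, at 1.90 to 9.25 CPM at RT and 9.65 to 20.2 CPM at TN (log2 difference 1.44, adjusted p 0.536). Fgf21, a hepatokine induced by PPARα, overlapped (log2 difference 1.00, adjusted p 0.809).

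Lipid droplet and fatty acid uptake genes had a similar share of higher members. Of 29 tested genes 0 were called by edgeR or DESeq2, 7 (24.1%) were higher and 0 lower with an unadjusted p under 0.05, and the median log2 difference was 0.20. For all genes tested those shares were 3.94% and 3.31%. TN replicate 24 was the lowest TN library in 25 of the 29. The count of 7 became 4 without RT replicate 12 and 12 without TN replicate 24, and the median ran from 0.09 without TN replicate 7 to 0.33 without TN replicate 24. Plin5, the perilipin that ties droplets to mitochondria, was at 32.9, 32.2, 38.5 and 22.2 CPM at RT and 57.6, 50.5, 59.1 and 38.5 CPM at TN (log2 difference 0.71, adjusted p 0.222), with TN replicate 24 at the level of RT replicate 15. Plin4 was at 15.8 to 45.0 CPM at RT and 59.7 to 143 CPM at TN (log2 difference 1.68, adjusted p 0.454), without overlap. G0s2, an inhibitor of the lipase ATGL, was at 67.5 to 145 CPM at RT and 144 to 428 CPM at TN (log2 difference 1.15, adjusted p 0.412). Cd36, a fatty acid translocase, was at 192, 107.5, 136 and 167 CPM at RT and 226, 268, 252 and 158 CPM at TN (log2 difference 0.59, adjusted p 0.53). The groups overlapped for Plin2 (log2 difference 0.21, adjusted p 0.871) and for Cidec (0.79, adjusted p 0.894). Cidec varied widely within each group, with means of 50.7 ± 27.7 CPM at RT and 87.8 ± 53.8 CPM at TN (SD, n = 4). The adipocyte marker sum, which includes Cidec and Fabp4, was higher at TN as given above, and its part in these values was not tested. Among its members Cfd, the protease adipsin, was at 46.4, 55.4, 76.8 and 111 CPM at RT and 203, 66.7, 112 and 144 CPM at TN (log2 difference 0.86, adjusted p 0.861), with TN replicate 6 within the RT range. Fabp4 had a log2 difference of -0.09, and Adipoq and Lep were at 0.

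Lipogenic genes were mostly higher at TN, with another arrangement of libraries. Of 30 tested genes 0 were called by edgeR and 1 by DESeq2, 5 (16.7%) were higher and 0 lower with an unadjusted p under 0.05, and 27 had a positive log2 difference. Over all genes tested 3.94% were higher and 3.31% lower at that limit, and 50.9% had a positive log2 difference. Elovl5, an elongase of polyunsaturated fatty acids, was at 842, 681, 464 and 861 CPM at RT and 900, 1112, 1594 and 1120 CPM at TN (log2 difference 0.73, adjusted p 0.222), without overlap. Fads1, the Δ5 desaturase, was at 452, 344, 306 and 465 CPM at RT and 591, 522, 744 and 593 CPM at TN (log2 difference 0.64, adjusted p 0.40), also without overlap. Scd1, the stearoyl-CoA desaturase, was at 20931.5 to 40132 CPM at RT and 39205 to 53507 CPM at TN (log2 difference 0.57, adjusted p 0.465), with RT replicate 18 inside the TN range.

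The list's median moved with single libraries. Fasn, fatty acid synthase, was at 1001, 1148, 253 and 1129 CPM at RT and 526, 882, 1295 and 4170 CPM at TN (log2 difference 0.96, adjusted p 0.816), where TN replicate 24 was far above all others and RT replicate 15 far below. Over the list TN replicate 24 was the highest of all 8 libraries in 21 of 30 genes. The median log2 difference was 0.35 and became 0.03 without that library and 0.55 without RT replicate 18. The count of 5 higher genes became 4 without RT replicate 12 and 11 without RT replicate 18. Srebf1, the lipogenic transcription factor, had a log2 difference of 0.03 (adjusted p 0.995). In cholesterol synthesis TN replicate 24 was the highest of 8 in 15 of 27 genes, and the median log2 difference of 0.21 became -0.01 without it. At an unadjusted p under 0.05, 2 were higher (7.41%) and 0 lower, against 3.94% and 3.31% of all genes tested. None was called by edgeR or DESeq2, and counts this small do not set the list apart. Without RT replicate 18 that median was 0.40 and the count of higher genes 6. Acat2, which makes acetoacetyl-CoA for that pathway, was at 40.6 to 64.5 CPM at RT and 72.9 to 92.3 CPM at TN (log2 difference 0.56, adjusted p 0.443), without overlap. Bile acid genes had 1 of 26 members, Cyp7b1, at an unadjusted p under 0.05. It was lower (3.85%, against 3.31% of all genes tested), which does not set that list apart either. Cyp7a1, the rate-limiting enzyme of bile acid synthesis, overlapped, at 47.0 to 195 CPM at RT and 73.6 to 298 CPM at TN (log2 difference 0.40, adjusted p 0.94).

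**Figure D4:**
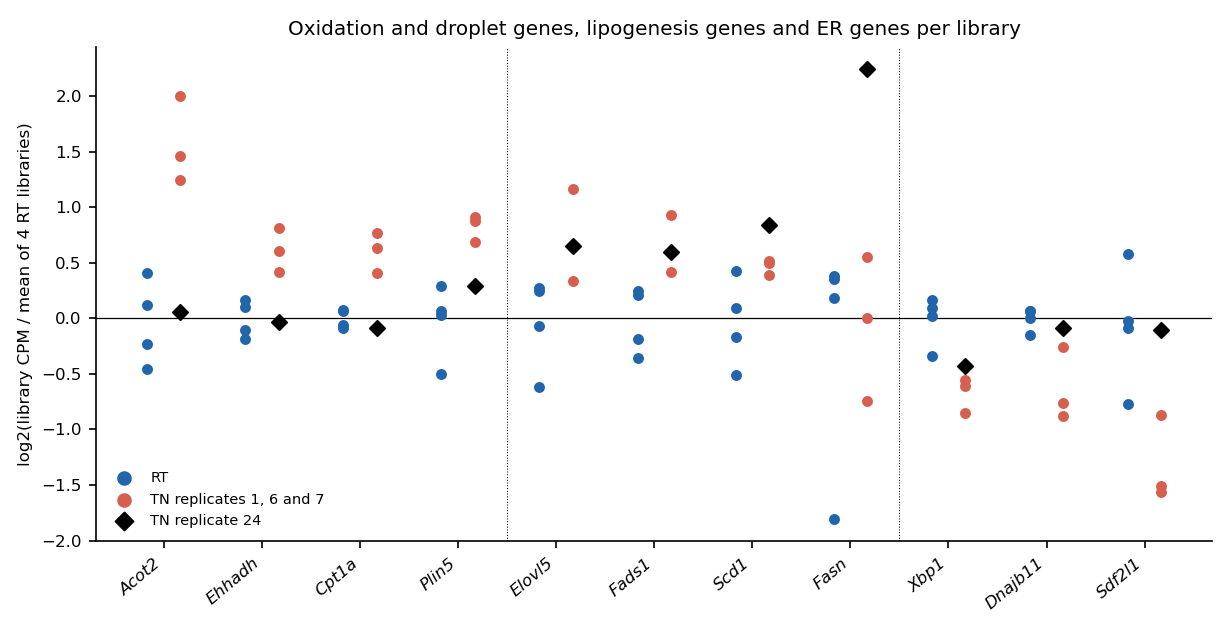
Level of each gene in each wild-type liver library, as log2 of its CPM over the mean of the 4 RT libraries, with genes of oxidation and droplets on the left, lipogenesis in the middle and the endoplasmic reticulum on the right. TN replicate 24 (black diamonds) sits among the RT libraries for Ehhadh (450 CPM), level with the lowest for Cpt1a (477 CPM) and above all libraries for Fasn (4170 CPM).

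Genes of protein folding and stress in the endoplasmic reticulum (ER) leaned lower. Of 24 tested genes 0 were called by edgeR or DESeq2, 8 (33.3%) were lower and 0 higher at an unadjusted p under 0.05, 21 had a negative log2 difference, and the median was -0.30. Among all genes tested 3.31% were lower and 3.94% higher at that limit, and 49.1% had a negative log2 difference. Xbp1, the transcription factor of the unfolded protein response, was at 261, 193, 248 and 273 CPM at RT and 135, 160, 166 and 181 CPM at TN (log2 difference -0.60, adjusted p 0.281), without overlap. Dnajb11, an ER co-chaperone, was at 76.7 to 89.0 CPM at RT and 71.1, 46.2, 50.2 and 80.0 CPM at TN (log2 difference -0.46, adjusted p 0.453). Sdf2l1, another ER chaperone component, was at 7.53 to 19.1 CPM at RT and 7.00, 4.497, 4.33 and 11.9 CPM at TN (log2 difference -0.88, adjusted p 0.582). TN replicate 24 again lay with the RT libraries in the chaperones. Asns, asparagine synthetase, a target of ATF4, was at 0.394 to 2.89 CPM at RT and 0 to 0.898 CPM at TN (log2 difference -2.60, adjusted p 0.486). The count of 8 became 12 without TN replicate 24, when Manf was called (adjusted p 0.0385), and 2 without TN replicate 6.

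In glucose and glycogen metabolism 4 of 30 tested genes (13.3%) were higher and 0 lower with an unadjusted p under 0.05, and 1 was called by DESeq2 against 0 by edgeR. At that limit 3.94% of all genes tested were higher and 3.31% lower. The count of 4 became 7 without TN replicate 6. Pcx, pyruvate carboxylase, the first step of gluconeogenesis from pyruvate, was at 591, 549, 637 and 558 CPM at RT and 842, 789, 831 and 777 CPM at TN (log2 difference 0.47, SE 0.11, adjusted p 0.186), with tight groups that did not overlap. Ppp1r3b, which targets protein phosphatase 1 to glycogen, was at 265 to 322 CPM at RT and 377 to 638 CPM at TN (log2 difference 0.77, adjusted p 0.428), without overlap. Insr, the insulin receptor, was at 126 to 151 CPM at RT and 152 to 184 CPM at TN (log2 difference 0.28, adjusted p 0.626). Pgm2, a phosphoglucomutase, was also higher in all TN libraries, at 2.68 to 3.68 CPM at RT and 3.97 to 7.45 CPM at TN.

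Glucocorticoid targets had a median log2 difference of 0.50 over 23 tested genes, with none called by edgeR or DESeq2. At an unadjusted p under 0.05, 4 were higher (17.4%) and 1 lower (4.35%), against 3.94% and 3.31% of all genes tested. Ddit4, an inhibitor of mTORC1, was at 2.84 to 7.28 CPM at RT and 6.42 to 12.3 CPM at TN (log2 difference 1.02, adjusted p 0.424), and Tsc22d3, the glucocorticoid-induced leucine zipper, at 33.9 to 78.8 CPM and 59.8 to 132 CPM (log2 difference 0.81, adjusted p 0.62). Among 24 clock genes 2 were higher (8.33%) and 1 lower (4.17%), against the same 3.94% and 3.31%, and 3 were lower without TN replicate 24. Counts this small do not set the list apart from all genes. Cry1, a repressor of the clock, was at 6.27, 8.82, 9.97 and 10.4 CPM at RT and 16.7, 18.2, 17.9 and 8.26 CPM at TN (log2 difference 0.78, adjusted p 0.40), with TN replicate 24 inside the RT range. The repressor Bhlhe41 was at 13.7, 5.24, 7.99 and 18.5 CPM at RT and 2.54, 2.33, 4.17 and 10.0 CPM at TN (log2 difference -1.25, adjusted p 0.598), with TN replicate 24 the highest TN library. The cold-inducible RNA-binding protein genes Rbm3 and Cirbp overlapped between groups, with log2 differences of -0.21 and -0.19 (adjusted p 0.86 and 0.93). Of 25 heat shock genes 1 was higher, Hspa1b, at 3.27 to 6.06 CPM at RT and 7.24 to 17.9 CPM at TN (log2 difference 1.15, adjusted p 0.561), without overlap.

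Matrix and fibrosis genes had a median log2 difference of 0.44 over 42 tested, and 38 were positive. At an unadjusted p under 0.05, 5 were higher (11.9%) and 1, Serpine2, lower (2.38%), against 3.94% and 3.31% of all genes tested. Col4a1, a basement membrane collagen, was at 30.9, 24.0, 23.9 and 28.7 CPM at RT and 31.1, 40.7, 37.6 and 47.2 CPM at TN (log2 difference 0.54, adjusted p 0.253), where the groups were separated by a narrow gap. Col1a1, the fibrillar collagen of scar tissue, was at 12.1, 5.83, 4.87 and 4.402 CPM at RT and 6.06, 34.7, 40.1 and 13.9 CPM at TN (log2 difference 1.80, adjusted p 0.443). TN replicate 1 lay within the RT range for Col1a1, and the count of 5 became 17 without it. Acute phase genes, which the liver secretes in inflammation, had 2 higher (6.90%) and 3 lower (10.3%) of 29, against the same shares of all genes. The higher count became 9 without RT replicate 15 and the lower count 1 without TN replicate 7. Saa3, an inducible serum amyloid, was at 9.00, 15.8, 36.0 and 10.1 CPM at RT and 4.15, 7.69, 5.22 and 7.04 CPM at TN (log2 difference -1.56, adjusted p 0.40), without overlap. Serpina3m was higher (log2 difference 0.43) and Serpina3k lower (-0.53), with adjusted p of 0.468 and 0.483.

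Other lists had few members with an unadjusted p under 0.05, where 3.94% of all genes tested were higher and 3.31% lower. Interferon response genes had a median of -0.17 over 35 genes with 1 lower, cell cycle genes 0.13 over 34 with 1 higher, and nuclear genes of oxidative phosphorylation -0.06 over 40 with 0 in either direction at an unadjusted p under 0.05 by edgeR. The 13 protein-coding genes of the mitochondrial genome had a median of -0.12 with 1 lower, mt-Nd2. Genes of drug metabolism had 5 higher and 4 lower of 38, among them the xenobiotic receptors Nr1i3 (CAR, log2 difference 0.66, adjusted p 0.469) and Nr1i2 (PXR, 0.33, 0.563), and hepatokines had 2 higher and 1 lower of 30. In drug metabolism the higher count ran from 2 without RT replicate 12 to 10 without TN replicate 24, and the lower count fell to 1 without RT replicate 12. In the renin-angiotensin system 2 of 13 genes (15.4%) were higher, the aminopeptidases Anpep (log2 difference 0.43, adjusted p 0.51) and Enpep (0.26, 0.685), which trim angiotensin peptides. That count became 0 without RT replicate 18, and 1 gene was lower without RT replicate 12. Of 21 pancreatic digestive genes 3 were tested and 1 was called, Cela1.

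**Figure D5:**
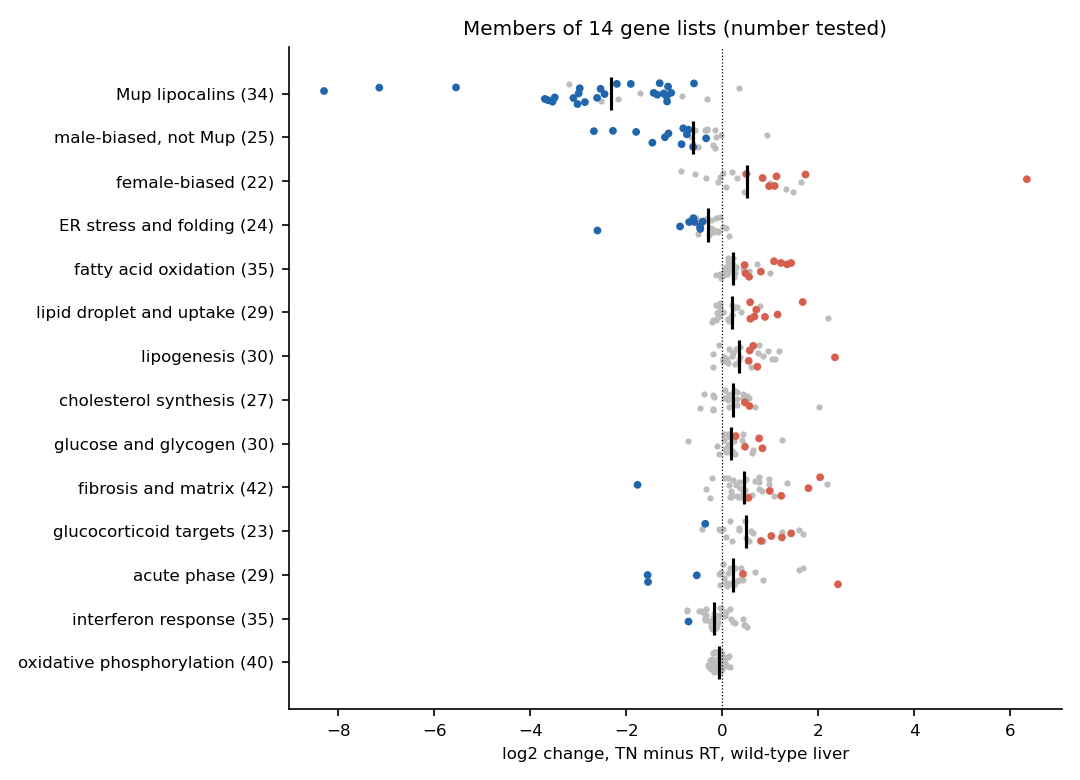
Log2 difference, TN minus RT, of each tested member of 14 gene lists in wild-type liver, with blue (lower) and red (higher) points at an unadjusted p under 0.05 and a black line at each median. The Mup list (median -2.33) and the other male-biased genes (-0.60) lie mostly below 0, whereas fatty acid oxidation (0.23) and lipogenesis (0.35) lie mostly above.

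The same contrast in the 8 knockout liver libraries gave values from separate mice. edgeR called 20 genes there (0.114%), 18 higher (0.102%) and 2 lower (0.0114%) at TN, and the 2 lower were Serpine2 and Mup9. Serpine2 was at 13.2, 16.4, 13.0 and 8.54 CPM in KO at RT and 6.39, 6.00, 4.76 and 3.54 CPM in KO at TN (log2 difference -1.31, adjusted p 0.0304). Mup9 was at 82.3 to 145 CPM in KO at RT and 2.28 to 4.30 CPM in KO at TN (log2 difference -5.07, adjusted p 0.031). The fall of both genes with warm housing was thus called in each genotype, again without overlap. Both calls came from 1 fit that shared its estimate of spread over the genotypes. In WT Mup9 was not called when only the 8 wild-type libraries were fitted (adjusted p 0.221). Cela1 had a log2 difference of -0.59 in KO (adjusted p 0.145) and Mup-ps13 of -0.44 (adjusted p 0.274).

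Whether the response differed between genotypes was tested as an interaction over the 16 liver libraries. edgeR called 0 of 17594 genes, with a lowest adjusted p of 0.399, shared by Cry1 and Saa3 among others, 1290 genes at an unadjusted p under 0.05 (7.33%), and 20 genes called by DESeq2. The 23 genes named by call or size, which were chosen on the WT values, had the same sign in KO, 22 of them with the larger log2 difference in WT, and their lowest adjusted p for the interaction was 0.50. The Mup share of counts was 3.55% to 5.01% in KO at RT and 1.99% to 3.08% in KO at TN, and the median log2 difference of the 34 Mup genes was -1.01 in KO against -2.33 in WT. The interferon list had a median of 0.95 in KO, with 24 of 35 members higher and 0 lower with an unadjusted p under 0.05, against 6.41% and 4.1% of all genes tested. It was -0.17 in WT, with 13 of 35 members at an unadjusted interaction p under 0.05. Markers of immune cells and of some other cell types were also higher in KO at TN. T and NK cell markers summed to 3.46 to 3.999 CPM in KO at RT and 6.05 to 39.9 CPM in KO at TN, with 6 of 10 higher at an unadjusted p under 0.05, and Kupffer cell markers to 203 to 415 CPM and 363 to 1015 CPM, with 6 of 9 higher and overlapping sums. In WT both of these sums overlapped between temperatures and none of their markers reached that limit. In KO, 7 of 10 stellate cell and fibroblast markers and 4 of 10 sinusoidal endothelium markers were also higher at that limit, with 0 lower. So were 22 of 42 matrix genes (1 lower) and 11 of 34 cell cycle genes (0 lower), whereas of 9 hepatocyte markers 0 were higher and 2 lower. The part of these cell types in the interferon values was not tested. The acute phase list had a median of 0.51 in KO and 0.23 in WT. Saa3 was on opposite sides, with a log2 difference of 1.55 in KO and -1.56 in WT (unadjusted interaction p 0.00023), and so was Cry1, with -0.76 in KO and 0.78 in WT. Across the 13225 genes whose mean reached 1 CPM, the log2 differences of the 2 genotypes had a Pearson r of 0.21. The genes are not independent replicates, so no p is given.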

How the data were processed

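RNA was extracted from snap-frozen liver, and mRNA libraries were made with an NEBNext Ultra kit and sequenced in pairs on a NovaSeq instrument, per the labels' protocols. The deposited values are raw counts per gene and library. The submitters' processing notes name fastp, STAR 2.6.1d, featureCounts 1.5.0-p3 and GRCm38/mm10. Strand setting, multi-mapping rule and annotation are not given in the sources used here. Of 56748 identifiers, 52073 (91.8%) have a symbol in GENCODE M21, from which coordinates are given. The 4675 others, some from a later annotation, held 0.266% to 3.22% of a wild-type library.

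The 16 liver libraries (4 groups of 4) were fitted in R 4.3.3 with edgeR 4.0.16 (TMM, filterByExpr with a minimum count of 10, robust quasi-likelihood F test, Benjamini-Hochberg over 17594 genes), with all groups sharing 1 estimate of spread (common biological coefficient of variation 0.402). P-values are two-sided. Alternatives were DESeq2 1.42.0, RLE scaling, other filters, no robust estimation, only the 8 wild-type libraries, and leaving out each library. In simulated data for this contrast (16575 genes, 200 changed), 52% of 2-fold and 84% of 4-fold changes were recovered, with 5 false calls. The 200 were drawn from genes whose mean reached 1 CPM, with a spread per gene estimated from the data. The adjusted p depends on how many genes change, and recovery with fewer changed genes was not tested.

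Named genes were every called gene, the 10 largest changes per direction among genes whose mean reached 1 CPM, an unadjusted p under 0.05 and no overlap, 12 genes of interest, and up to 4 members of each of 25 lists with the lowest p under 0.05. All Mup genes and genes with an adjusted p under 0.1 were added later. Members and lists were chosen with earlier results of these data known. Marker sums use plain CPM. A few named genes are not reported here.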

Additional observations from a re-analysis of the deposited data

Results flagged for a closer look

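In 21 of 242 groups of 4 libraries (8.68%), over 121 named genes, 1 library lay so far from the other 3 that its gap exceeded Dixon's 95% limit. Chance gives about 1 in 20 for normal and independent values. Levels near 0 are skewed and Mup genes share sequence, so the share of 8.68% cannot show an excess over that rate. TN replicate 1 was the high library in 4 of them, with Mup8 at 3.44 CPM, Mup18 at 777 CPM, Mup19 at 1115 CPM and Nr1i2 at 142 CPM. RT replicate 18 was high for Mup19 at 10730.0 CPM, for Mup-ps15 at 6.37 CPM and for Mup-ps20 at 8.90 CPM. RT replicate 11 was high for Mup16 at 6249.6 CPM, for Plin2 at 877 CPM and for H19 at 0.115 CPM, and RT replicate 12 for Mup2 at 169.5 CPM and Ddit4 at 7.28 CPM. RT replicate 15 was high for Mup10 at 2537 CPM and low for Mup-ps13 at 19.3 CPM and Fasn at 253 CPM. TN replicate 24 was low for Cry1 at 8.26 CPM and Acot4 at 116 CPM. TN replicate 7 was low for Myadm at 25.3 CPM and C6 at 89.8 CPM and high for Acat2 at 92.3 CPM, and TN replicate 6 was high for Mup-ps2 at 1.51 CPM.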

How the results depend on the processing

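Serpine2 and Mup-ps13 kept their calls under all alternatives run. The 4 calls of the temperature comparison became 89 with DESeq2, 10 with no filter on low counts, 8 with only the 8 wild-type libraries and 11 without robust estimation, and stayed at 4 with RLE scaling and with a minimum of 1 CPM. Leaving out 1 library gave 2 (without WT TN replicate 6) to 23 calls (without WT TN replicate 24). The interaction had 20 calls with DESeq2 and 0 in all other alternatives. Directions turned only for values far from the threshold. Leave-one-out log2 differences ran from -5.83 to 0.30 for Mup19, -2.32 to 0.81 for Mup-ps20, -0.56 to 0.18 for Mup21, -1.72 to 0.25 for Mup-ps2, -0.067 to 0.72 for Cyp7a1, -0.73 to 1.31 for Mup-ps6 and -0.20 to 0.21 for Srebf1, and the cause was not tested. For the first 4 the sign turned without WT RT replicate 18. No paired analysis was possible because the wild-type RT and TN libraries share no replicate number. With 4 libraries a group, recovery in simulated data (52% of 2-fold changes, with 200 genes changed) limits what a missed call shows. Recovery with fewer changed genes, or of genes under 1 CPM, was not tested. Reads shared between Mup genes limit single members.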
